A study of Arabidopsis thaliana with 9 samples.

Results

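A set of 68 loci of Arabidopsis thaliana, out of 32399 nuclear loci counted, had nascent transcripts in the library labelled nrpd1-3 and few or none in the library labelled nrpe1-11. They were chosen by a rule on counts alone. A locus needed at least 30 nuclear run-on counts in nrpd1-3, and its count in nrpe1-11 could be at most 25% of that count. NRPD1 (AT1G63020), the gene mutated in nrpd1-3, was left out. In a nuclear run-on (NRO), polymerases already engaged in isolated nuclei extend their transcripts with biotin-UTP, and the labelled RNA is captured on streptavidin beads. All libraries came from leaves of plants 3 weeks old, kept at 22 °C in days of 16 h light and nights of 8 h. The genotypes were the line with the nrpd1-3 allele of the largest subunit of Pol IV, the line with the nrpe1-11 allele of the largest subunit of Pol V, and Col-0, the wild type. NRO and steady-state nuclear RNA (RNA) were each counted once per genotype, which gives 6 groups of 1 library. With 1 library per group nothing could be tested between genotypes and no difference below has a replicate check. Each mutant is a single allele, and how many plants went into a library is not given in the sources used here.

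RNA polymerases IV and V occur in plants alone, evolved from Pol II and serve RNA-directed DNA methylation. Pol IV makes the precursors of small interfering RNAs, and Pol V makes the scaffold transcripts that these small RNAs pair with, after which cytosines at the locus are methylated and the locus is kept silent. The pathway is known for its action on transposons and other repeats, many of which the RefSeq annotation of Arabidopsis lists in its pseudogene class. Loss of either polymerase can release some of these loci to transcription by Pol II, and the series asks how both polymerases affect Pol II.

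The counts that chose the loci are a description and support nothing. The 68 loci had between 30 and 385 NRO counts in nrpd1-3, with a median of 49.5, and between 0 and 96 counts in nrpe1-11, with a median of 8. Absence from nrpe1-11 holds for few of them, since 12 loci had 0 counts there and 51 had 5 or more. The group is therefore taken below for what the rule says, loci with at most 25% of the nrpd1-3 count. Just inside the share limit lay AT3G57586 at 44 counts in nrpd1-3 and 11 in nrpe1-11 (25%), AT5G66090 at 24.9% and AT5G56160 at 24.8%. Just outside it lay AT3G54990 at 25.7%, AT4G35680 at 25.8% and AT2G45930 at 25.9%. On the count limit, 4 chosen loci had exactly 30 counts, and 4 loci with 29 counts met the share limit but were not chosen. A share above 20% was found at 18 of the 68.

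**Figure D1:**
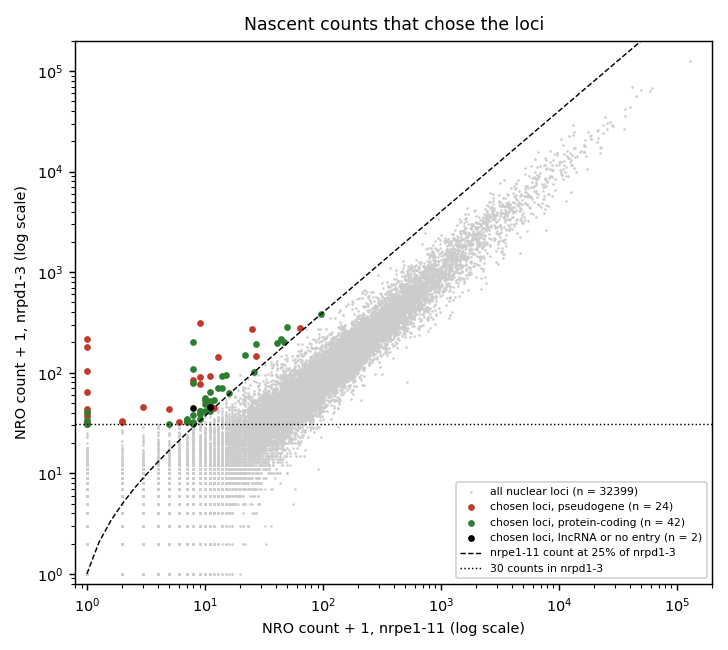
NRO counts plus 1 of each locus in nrpd1-3 (y axis) and nrpe1-11 (x axis), both on log scales. Coloured points are the 68 chosen loci and grey points the other loci, with the limits of 30 counts and 25% drawn as lines. Of the chosen loci, 12 lie at 0 counts in nrpe1-11 and 18 lie above a share of 20%.

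The libraries differed in depth. NRO libraries held 8185846 gene counts in nrpd1-3, 7504294 in nrpe1-11 and 2687149 in Col-0, and RNA libraries held 386011, 493080 and 709905 in the same order of genotypes. Levels are given as CPM, counts per 1000000 after scaling of the libraries to each other, and a floor of 3 counts equals 0.342, 0.323 and 1.50 CPM in NRO and 7.10, 6.46 and 6.26 CPM in RNA of nrpd1-3, nrpe1-11 and Col-0. NRPD1 itself had 94 counts in nrpd1-3, 19 counts in nrpe1-11 and 9 counts in Col-0 in NRO and 8 counts in nrpd1-3, 3 counts in nrpe1-11 and 0 counts in Col-0 in RNA, so its counts were not low in the library labelled nrpd1-3. NRPE1 had 81 counts in nrpd1-3, 82 counts in nrpe1-11 and 24 counts in Col-0 in NRO. Values below for nrpd1-3 or nrpe1-11 belong to the libraries so labelled. Counts printed without CPM are not scaled for depth and do not compare levels between libraries directly. Markers of leaf mesophyll were abundant, summing to 4340, 5297 and 5182 CPM in NRO of nrpd1-3, nrpe1-11 and Col-0 over 6 genes. The floral genes AG, AP1, AP3 and LFY had 0 or 1 count in all per library. In NRO of nrpd1-3, nrpe1-11 and Col-0, markers of epidermis and trichomes summed to 70.3, 96.5 and 43.0 CPM, of guard cells to 8.32, 11.6 and 9.99, of phloem to 27.6, 27.5 and 25.5, of dividing cells to 9.80, 11.4 and 6.99, and of seed and pollen to 1.94, 0.539 and 7.49. Their part in the results was not tested, and in such bulk samples fewer cells of a type and less RNA per cell cannot be told apart.

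The chosen loci were rich in pseudogenes. Of the 68, 42 were annotated as protein-coding and 24 as pseudogenes, 1 was a long noncoding RNA (AT1G09421) and 1 had no entry (AT5G62576). Pseudogenes thus made up 35.3% of the chosen loci (95% exact interval 24.1 to 47.8), against 0.955% (131 of 13712) of all loci with at least 30 NRO counts in nrpd1-3. That interval treats the loci as independent draws and does not cover the choice of limits. Seen the other way, 18.3% of those 131 pseudogenes were chosen, and 0.314% of the 13355 protein-coding genes with at least 30 counts were. The same rule with nrpe1-11 and nrpd1-3 exchanged took 31 loci, of which 30 were protein-coding, 1 was the microRNA gene MIR162a and 0 were pseudogenes. In nrpe1-11 101 of 13872 loci with at least 30 counts were pseudogenes (0.728%). The median nrpe1-11 count over the 131 pseudogenes was 82.1% of the nrpd1-3 count, beside 104% over protein-coding genes, and 32 of the 131 pseudogenes had more counts in nrpe1-11 than in nrpd1-3, beside 7218 of the 13355 protein-coding genes. The annotation class took no part in the rule, but class shares depend on which loci met the count limit.

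**Figure D2:**
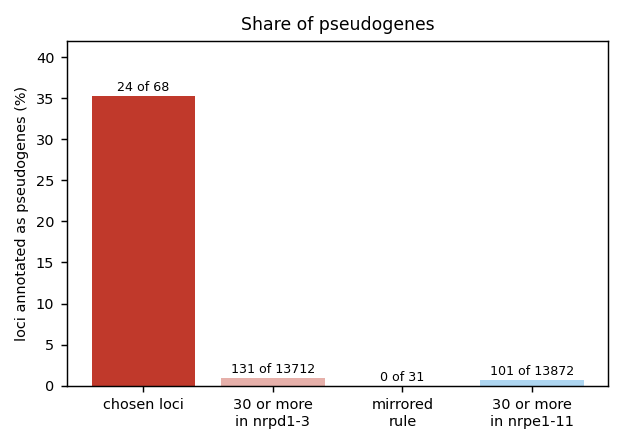
Share of loci annotated as pseudogenes (y axis, percent), for the 68 chosen loci, all loci with at least 30 NRO counts in nrpd1-3, the 31 loci of the exchanged (mirrored) rule and all loci with at least 30 NRO counts in nrpe1-11. Bars carry the number of pseudogenes and of loci. The chosen loci stand at 35.3%, and the other sets are at 0% to 0.955%.

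Most of the 24 pseudogenes had few or no counts in Col-0 NRO, the NRO library with the fewest counts, where 3 counts equal 1.50 CPM. In Col-0 NRO, 10 of them had 0 counts and 8 had between 1 and 3. Of all 131 pseudogenes with at least 30 NRO counts in nrpd1-3, 21 had 0 counts in Col-0, beside 50 of the 13355 protein-coding genes. In nrpe1-11 9 had 0 counts and 3 had between 1 and 3. The most abundant was AT5G27925, with 35.7 CPM (313 counts) in nrpd1-3, 0.862 CPM (8 counts) in nrpe1-11 and 0 counts in Col-0. Its level in nrpd1-3 was at least 23.8-fold that in Col-0, the bound being set by the floor of 3 counts. AT3G44215 was found in nrpd1-3 alone among the NRO libraries, with 24.3 CPM (213 counts) in nrpd1-3, 0 counts in nrpe1-11 and 0 counts in Col-0, which is at least 16.2-fold over Col-0. Neither locus carries an annotated name beyond its identifier.

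A further 3 pseudogenes among the 15 loci with the highest NRO counts in nrpd1-3 were also highest in that library. AT4G20365 had 20.6 CPM (181 counts) in nrpd1-3, 0 counts in nrpe1-11 and 1.50 CPM (3 counts) in Col-0, and the ratio of nrpd1-3 over Col-0 was 13.8 (95% interval 4.64 to 67.4). AT5G19097 had 16.1 CPM (141 counts) in nrpd1-3, 1.29 CPM (12 counts) in nrpe1-11 and 0.499 CPM (1 count) in Col-0, with a ratio over Col-0 of 32.2 (95% interval 5.68 to 1279.8). Both stood far above Col-0, and AT4G20365 had no count in nrpe1-11. The remaining locus was AT5G35495, with 31.8 CPM (279 counts) in nrpd1-3, 6.79 CPM (63 counts) in nrpe1-11 and 8.99 CPM (18 counts) in Col-0. Its nrpd1-3 level was 3.54 (95% interval 2.20 to 6.06) times that of Col-0, and its nrpe1-11 level was 0.755 (95% interval 0.441 to 1.35) times that of Col-0, an interval that includes 1.

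Lower counts showed the same arrangement. AT5G42645 had 11.9 CPM (104 counts) in nrpd1-3, 0 counts in nrpe1-11 and 3.00 CPM (6 counts) in Col-0. AT2G21460 had 10.4 CPM (91 counts) in nrpd1-3, 1.08 CPM (10 counts) in nrpe1-11 and 5.99 CPM (12 counts) in Col-0. AT4G09425 had 10.1 CPM (89 counts) in nrpd1-3, 0.862 CPM (8 counts) in nrpe1-11 and 0.999 CPM (2 counts) in Col-0. In each of them nrpd1-3 was the highest of the 3 libraries, although for AT2G21460 the ratio over Col-0 was 1.73 (95% interval 0.944 to 3.47). Among loci picked after their values were seen, AT1G53810 had 9.57 CPM (84 counts) in nrpd1-3, 0.754 CPM (7 counts) in nrpe1-11 and 0 counts in Col-0, at least 6.39-fold over Col-0. AT4G04560 had 8.66 CPM (76 counts) in nrpd1-3, 0.862 CPM (8 counts) in nrpe1-11 and 0.499 CPM (1 count) in Col-0. AT2G16680 had 7.29 CPM (64 counts) in nrpd1-3, 0 counts in nrpe1-11 and 0.999 CPM (2 counts) in Col-0. These too were highest in nrpd1-3, with 2 counts or fewer in Col-0. AT5G26020, AT1G48680, AT5G28335 and AT2G20460 had 43, 36, 31 and 30 counts in nrpd1-3 and 0 counts in both nrpe1-11 and Col-0. AT3G62725, AT2G05240 and AT5G28675 had 45, 43 and 31 counts in nrpd1-3, 2, 4 and 1 in nrpe1-11 and 0 in Col-0. AT3G57586, AT5G07215 and AT2G04580 had 44, 39 and 31 counts in nrpd1-3, 11, 0 and 5 in nrpe1-11 and 3, 1 and 1 in Col-0. None of these 10 loci had more than 3 counts in Col-0.

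At the last 3 of the 24 pseudogenes nrpd1-3 was not clearly above Col-0. AT5G41755 had 31.2 CPM (274 counts) in nrpd1-3, 2.59 CPM (24 counts) in nrpe1-11 and 107 CPM (215 counts) in Col-0, so that Col-0 was the highest library and nrpd1-3 stood at 0.291 (95% interval 0.242 to 0.349) times its level. AT4G06477 had 16.5 CPM (145 counts) in nrpd1-3, 2.80 CPM (26 counts) in nrpe1-11 and 17.5 CPM (35 counts) in Col-0, and its ratio of nrpd1-3 over Col-0, 0.945 (95% interval 0.650 to 1.41), has an interval that includes 1, and its log2 ratio of -0.08 turned to 0.44 with libraries scaled by their total counts. AT5G45116 had 3.65 CPM (32 counts) in nrpd1-3, 0.108 CPM (1 count) in nrpe1-11 and 6.49 CPM (13 counts) in Col-0, a ratio of 0.562 (95% interval 0.287 to 1.17). At these 3 loci nrpe1-11 had the lowest level.

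A size rule served for counts of loci. For a call of higher or lower, the ratio taken with a prior count of 2 had to be at least 2-fold. The 95% exact conditional binomial interval of the ratio, which covers counting error only, also had to exclude 1. At a called locus with 0 counts in a library, the bound at the floor of 3 counts can therefore lie under 2-fold. In nrpd1-3 over nrpe1-11, the contrast that chose the loci, all 68 were called higher and 0 lower, where 4.66% and 3.35% of all loci were, and nothing is read from this. In nrpd1-3 over Col-0 in NRO, 29 of the 68 loci were called higher, where 9.31% of the 16083 loci measured were, and 7 were called lower, where 6.99% were. With libraries scaled by their total counts, 43 were called higher and 5 lower, beside 3859 and 365 of all loci. All 68 were measured, because the rule asks for 30 counts in nrpd1-3, and 30 counts there equal 3.42 CPM. The nrpd1-3 library is one that chose the loci, so these counts describe the group and are not independent of the rule. By class, 20 of the 24 pseudogenes were called higher and 1 (AT5G41755) lower, beside 35 higher and 11 lower among the 153 other pseudogenes measured. With the 10 loci at 0 in Col-0 held at the floor, the median log2 ratio of the 24 was 1.78, beside 0.02 over all loci treated in the same way. In nrpe1-11 over Col-0, 0 of the 68 were called higher, where 12.1% of all loci were, and 32 were called lower, where 11.1% were. With libraries scaled by their totals, 0 were called higher and 25 lower, beside 5676 and 515 of all loci. Of the 32, 6 were pseudogenes. The 6 were AT5G41755, AT5G45116, AT4G06477, AT2G21460, AT5G42645 and AT4G20365. The call at AT4G20365 rested on 0 counts in nrpe1-11 against 3 counts in Col-0, which is no more than the floor, so no difference is read there. The nrpe1-11 library also chose the loci, so low values there were favoured and these calls too are a description. Both mutants were set against the same Col-0 library.

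**Figure D3:**
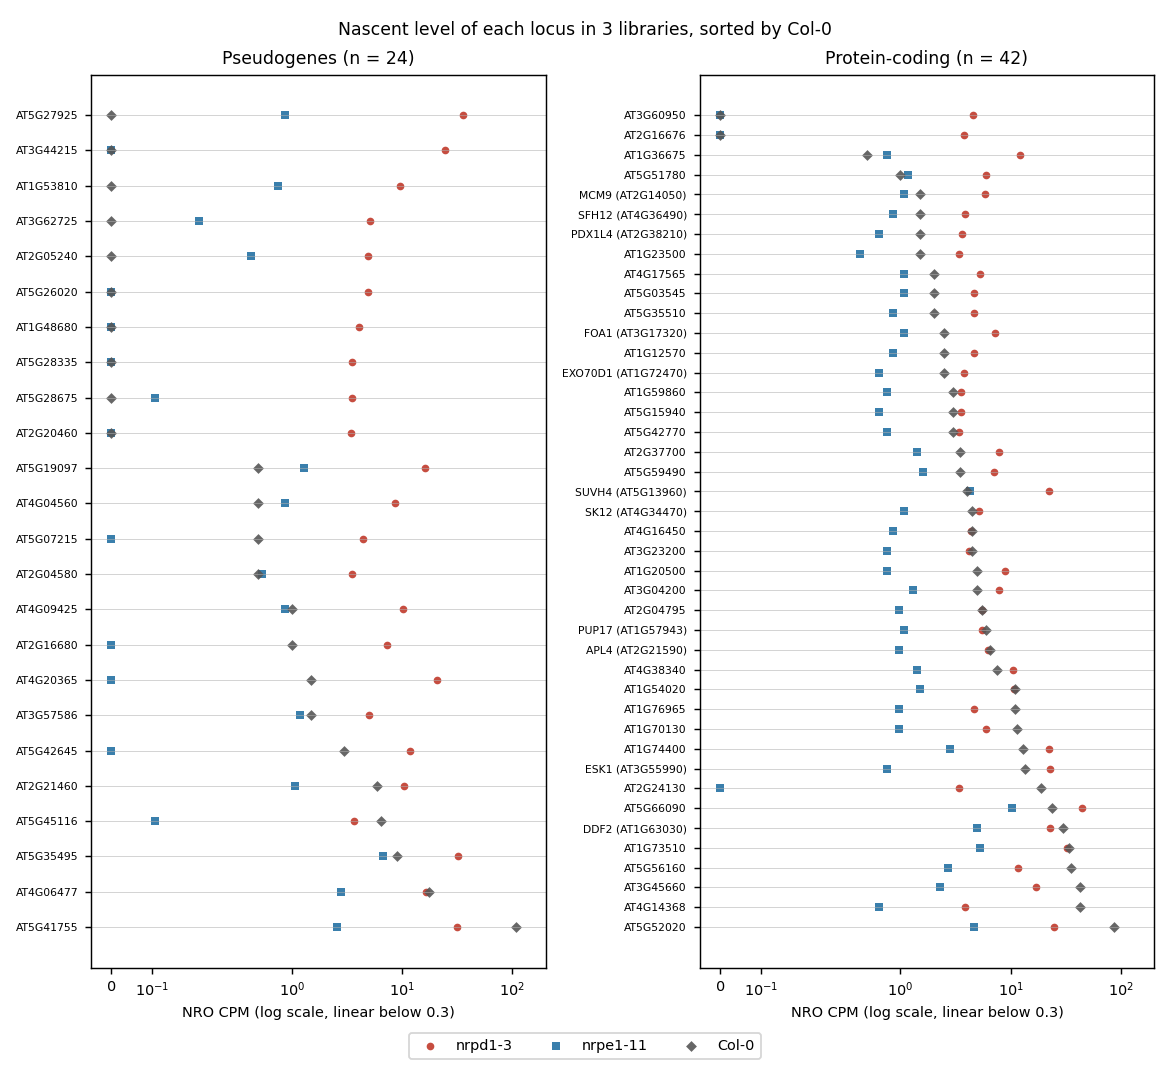
NRO level (x axis, CPM, log scale that is linear below 0.3) of each chosen pseudogene (left, 24) and protein-coding gene (right, 42) in nrpd1-3, nrpe1-11 and Col-0, 1 library each, with loci sorted by Col-0. Among pseudogenes 10 lie at 0 in Col-0 and AT5G41755 is highest there, while 31 of the 42 protein-coding genes had at least 5 counts in Col-0.

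Among protein-coding genes the low library was mostly nrpe1-11, which the rule favours. Of the 42, 31 had at least 5 NRO counts in Col-0, and 25 were called lower in nrpe1-11 than in Col-0 and 0 higher. Of the other protein-coding genes measured, 10.7% were called lower and 12.1% higher in that comparison. In nrpd1-3 over Col-0, 8 of the 42 were called higher, 6 lower and 28 neither, where 9.04% and 6.75% of the other protein-coding genes were called higher and lower. With libraries scaled by their totals 21 of the 42 were called higher and 4 lower. The median log2 ratio over Col-0 was 0.58 in nrpd1-3 and -1.77 in nrpe1-11, beside 0.03 and 0.04 over all loci measured. A low nrpe1-11 count was a condition of the rule, so low values there were favoured in advance. The Col-0 library took no part in the rule, but the comparisons with it are still not independent of the rule.

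The 8 genes called higher in nrpd1-3 than in Col-0 had low Col-0 counts, between 0 and 8. SUVH4, also known as KRYPTONITE, a histone H3 lysine 9 methyltransferase that maintains non-CG methylation, had 22.3 CPM (196 counts) in nrpd1-3, 4.31 CPM (40 counts) in nrpe1-11 and 4.00 CPM (8 counts) in Col-0. Its nrpd1-3 level was 5.59 (95% interval 2.78 to 13.1) times that of Col-0, whereas nrpe1-11 stood at 1.08 (95% interval 0.498 to 2.67) times Col-0, with 1 inside the interval. AT1G36675 had 12.2 CPM (107 counts) in nrpd1-3, 0.754 CPM (7 counts) in nrpe1-11 and 0.499 CPM (1 count) in Col-0, a ratio of 24.4 (95% interval 4.29 to 973) over Col-0 on 1 count there. AT3G60950 and AT2G16676 had 40 and 33 counts in nrpd1-3 and 0 in both other libraries, at least 3.04-fold and 2.51-fold over Col-0. MCM9, a minichromosome maintenance protein gene, had 5.81 CPM (51 counts) in nrpd1-3, 1.08 CPM (10 counts) in nrpe1-11 and 1.50 CPM (3 counts) in Col-0. FOA1, an F-box gene of abscisic acid signalling, had 7.18 CPM (63 counts) in nrpd1-3, 1.08 CPM (10 counts) in nrpe1-11 and 2.50 CPM (5 counts) in Col-0. The other two were AT2G37700, with 69 counts in nrpd1-3, 13 in nrpe1-11 and 7 in Col-0, and AT5G51780, with 52, 11 and 2 counts in the same order. SUVH4, AT1G36675, AT5G51780, AT3G60950 and AT2G16676 had Col-0 levels at or below those of nrpe1-11, with both at 0 for the last 2.

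For other abundant genes nrpd1-3 and Col-0 lay within 2-fold of each other and nrpe1-11 was the lowest library. AT1G73510 had 32.3 CPM (283 counts) in nrpd1-3, 5.28 CPM (49 counts) in nrpe1-11 and 33.5 CPM (67 counts) in Col-0. DDF2, a transcription factor of the AP2/DREB family, had 22.7 CPM (199 counts) in nrpd1-3, 4.95 CPM (46 counts) in nrpe1-11 and 29.97 CPM (60 counts) in Col-0. ESK1 (TBL29), which acts in xylan acetylation, had 22.7 CPM (199 counts) in nrpd1-3, 0.754 CPM (7 counts) in nrpe1-11 and 13.5 CPM (27 counts) in Col-0. The nrpd1-3 level over Col-0 was 0.964 (95% interval 0.736 to 1.28) for AT1G73510, 0.757 (95% interval 0.564 to 1.03) for DDF2 and 1.68 (95% interval 1.12 to 2.62) for ESK1. The nrpe1-11 level over Col-0 was 0.158 (95% interval 0.107 to 0.231), 0.165 (95% interval 0.110 to 0.247) and 0.0559 (95% interval 0.0206 to 0.132) for the same genes, so all 3 were called lower there. The log2 ratio of nrpd1-3 over Col-0 changed sign with libraries scaled by their totals at DDF2, -0.40 turning to 0.12, and at AT1G73510, -0.05 turning to 0.47, so which of these 2 libraries was higher there depends on the scaling. AT5G66090 had 43.9 CPM (385 counts) in nrpd1-3, 10.3 CPM (96 counts) in nrpe1-11 and 23.5 CPM (47 counts) in Col-0, and AT1G74400 had 22.0 CPM (193 counts) in nrpd1-3, 2.80 CPM (26 counts) in nrpe1-11 and 13.0 CPM (26 counts) in Col-0. Their ratios of nrpd1-3 over Col-0, 1.87 (95% interval 1.38 to 2.59) and 1.69 (95% interval 1.12 to 2.66), were under 2-fold, with intervals that exclude 1.

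Genes of known function with lower counts belonged mostly to the same kind. They were named here because the annotation gives a function, after their values had been seen. The ADP-glucose pyrophosphorylase large subunit gene APL4 had 6.27 CPM (55 counts) in nrpd1-3, 0.969 CPM (9 counts) in nrpe1-11 and 6.49 CPM (13 counts) in Col-0, and the purine permease gene PUP17 had 5.47 CPM (48 counts) in nrpd1-3, 1.08 CPM (10 counts) in nrpe1-11 and 5.99 CPM (12 counts) in Col-0. NLP3 (AT4G38340), a NIN-like transcription factor gene, had 10.4 CPM (91 counts) in nrpd1-3, 1.40 CPM (13 counts) in nrpe1-11 and 7.49 CPM (15 counts) in Col-0. In these genes nrpe1-11 had the lowest level and the other two libraries were close. SK12, of the SKP1-like (SK) family as the annotation names it, had 5.13 CPM (45 counts) in nrpd1-3, 1.08 CPM (10 counts) in nrpe1-11 and 4.50 CPM (9 counts) in Col-0. The exocyst subunit gene EXO70D1 had 3.76 CPM (33 counts) in nrpd1-3, 0.646 CPM (6 counts) in nrpe1-11 and 2.50 CPM (5 counts) in Col-0. SFH12, a SEC14-like gene, had 3.88 CPM (34 counts) in nrpd1-3, 0.862 CPM (8 counts) in nrpe1-11 and 1.50 CPM (3 counts) in Col-0. The putative PDX1-like gene PDX1L4 had 3.65 CPM (32 counts) in nrpd1-3, 0.646 CPM (6 counts) in nrpe1-11 and 1.50 CPM (3 counts) in Col-0. Counts of 3 to 9 in Col-0 limit the precision at these genes. The phosphate starvation gene AT4 (AT5G03545) had 41 counts in nrpd1-3, 10 counts in nrpe1-11 and 4 counts in Col-0.

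Another kind was highest in Col-0. AT5G52020 had 24.7 CPM (217 counts) in nrpd1-3, 4.63 CPM (43 counts) in nrpe1-11 and 85.9 CPM (172 counts) in Col-0, and its nrpd1-3 level was 0.288 (95% interval 0.235 to 0.354) times that of Col-0. AT3G45660 had 17.0 CPM (149 counts) in nrpd1-3, 2.26 CPM (21 counts) in nrpe1-11 and 41.96 CPM (84 counts) in Col-0, a ratio of 0.405 (95% interval 0.308 to 0.535). AT5G56160 had 11.5 CPM (101 counts) in nrpd1-3, 2.69 CPM (25 counts) in nrpe1-11 and 35.5 CPM (71 counts) in Col-0, a ratio of 0.325 (95% interval 0.237 to 0.446). These are 3 of the 6 genes called lower in nrpd1-3 than in Col-0, and all were lower again in nrpe1-11. The others were AT4G14368, AT2G24130 and AT1G76965. AT4G14368 had 3.88 CPM (34 counts) in nrpd1-3, 0.646 CPM (6 counts) in nrpe1-11 and 41.96 CPM (84 counts) in Col-0. AT2G24130 had 3.42 CPM (30 counts) in nrpd1-3, 0 counts in nrpe1-11 and 19.0 CPM (38 counts) in Col-0. AT1G76965 had 4.67 CPM (41 counts) in nrpd1-3, 0.969 CPM (9 counts) in nrpe1-11 and 11.0 CPM (22 counts) in Col-0. The lectin receptor kinase gene LecRK-V.2 (AT1G70130) had 5.93 CPM (52 counts) in nrpd1-3, 0.969 CPM (9 counts) in nrpe1-11 and 11.5 CPM (23 counts) in Col-0, and its ratio of nrpd1-3 over Col-0 was 0.516 (95% interval 0.310 to 0.883). The 13 protein-coding genes not named had 30 to 94 counts in nrpd1-3, 4 to 15 in nrpe1-11 and 3 to 22 in Col-0. Of the loci in neither class, AT1G09421 had 45 counts in nrpd1-3, 10 counts in nrpe1-11 and 9 counts in Col-0, and AT5G62576 had 44 counts in nrpd1-3, 7 counts in nrpe1-11 and 2 counts in Col-0, the second being called higher in nrpd1-3 than in Col-0.

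Levels were also summed over the loci of each class. In NRO, the nrpd1-3 and nrpe1-11 counts summed are those that chose the loci. High nrpd1-3 and low nrpe1-11 ratios over Col-0 were thus favoured by the rule and are a description, and their intervals do not cover that choice. Sums without AT5G41755 were added after the data were seen. The 24 pseudogenes held 280.3 CPM of NRO (2459 counts) in nrpd1-3, 20.5 CPM (190 counts) in nrpe1-11 and 156.3 CPM (313 counts) in Col-0. The ratio of nrpd1-3 over Col-0 was 1.79 (95% interval 1.59 to 2.02), and without AT5G41755, which alone gave 215 of the Col-0 counts, it was 5.09 (4.15 to 6.29). Their ratio of nrpe1-11 over Col-0 was 0.131 (0.109 to 0.157), and 0.365 (0.283 to 0.474) without AT5G41755. With libraries scaled by their totals it was 0.218 (0.181 to 0.261). The 42 protein-coding genes held 404.5 CPM (3549 counts) in nrpd1-3, 67.0 CPM (622 counts) in nrpe1-11 and 461.0 CPM (923 counts) in Col-0. Their ratio of nrpd1-3 over Col-0 was 0.877 (0.816 to 0.944) and turned to 1.26 when libraries were scaled by their total counts, so its direction depends on the scaling. For nrpe1-11 over Col-0 the protein-coding ratio was 0.145 (0.131 to 0.161), and 0.241 (0.218 to 0.268) with libraries scaled by their totals.

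**Figure D4:**
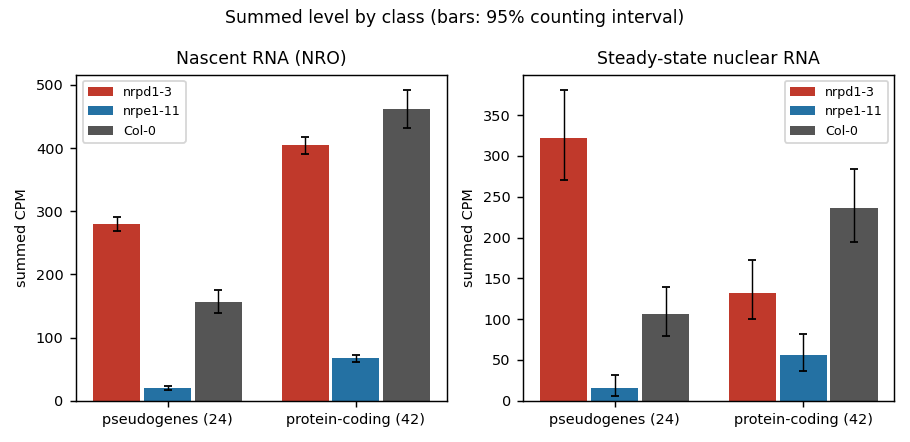
Summed level (CPM) of the 24 pseudogenes and 42 protein-coding genes in NRO and RNA of nrpd1-3, nrpe1-11 and Col-0, with exact 95% Poisson intervals, which cover counting error only. In RNA the pseudogene sum is highest in nrpd1-3 at 321.9 CPM, against 106.5 CPM in Col-0, and the protein-coding sum is highest in Col-0 at 235.9 CPM. The NRO order of nrpd1-3 and Col-0 for protein-coding genes turns round when libraries are scaled by their totals.

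Steady-state nuclear RNA, which took no part in the rule, was sparse at these loci. Only AT3G44215 and AT5G41755 reached 20 counts in any RNA library, the minimum for a locus to be measured, and 14 of the 68 had 0 RNA counts in every library. AT3G44215 had 99.4 CPM (42 counts) in nrpd1-3, 0 counts in nrpe1-11 and 0 counts in Col-0, at least 15.4-fold over nrpe1-11 and 15.9-fold over Col-0. It was called higher in nrpd1-3 in both comparisons, where 5.31% of the 3297 loci measured were against nrpe1-11 and 7.25% against Col-0. It reached 20 counts in nrpd1-3 alone, so the filter fixed these calls and nothing is read from them. Against nrpe1-11 neither of the chosen loci measured was called lower, where 4.82% were. Both had 0 counts in nrpe1-11, so neither could be, and nothing is read from this. AT5G41755 had 2.37 CPM (1 count) in nrpd1-3, 0 counts in nrpe1-11 and 77.2 CPM (37 counts) in Col-0, as in NRO highest in Col-0. It was called lower than Col-0 in nrpd1-3, where 11.9% of loci were, and in nrpe1-11, where 19.0% were. It reached 20 counts in Col-0 alone, so these calls too were fixed by the filter and are a description.

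Of the 24 pseudogenes, 16 had RNA counts above 0 in nrpd1-3, the RNA library with the fewest counts, 4 had them in nrpe1-11 and 6 in Col-0. AT5G27925 had 45.0 CPM (19 counts) in nrpd1-3, 0 counts in nrpe1-11 and 0 counts in Col-0, at least 6.96-fold over nrpe1-11 and 7.18-fold over Col-0. AT4G09425 had 42.6 CPM (18 counts) in nrpd1-3, 4.31 CPM (2 counts) in nrpe1-11 and 2.09 CPM (1 count) in Col-0. AT2G21460 had 30.8 CPM (13 counts) in nrpd1-3, 0 counts in nrpe1-11 and 6.26 CPM (3 counts) in Col-0. All 3 were highest in nrpd1-3, with 2 counts or fewer in nrpe1-11. AT5G35495 had 23.7 CPM (10 counts) in nrpd1-3, 6.46 CPM (3 counts) in nrpe1-11 and 10.4 CPM (5 counts) in Col-0, and its ratio of nrpd1-3 over nrpe1-11 was 3.66 (95% interval 0.943 to 20.7), with 1 inside the interval. AT5G19097, AT4G20365 and AT5G28675 had 7, 6 and 6 counts in nrpd1-3 and 0 in both other libraries. Against nrpe1-11, 16 pseudogenes had the higher RNA level in nrpd1-3, 0 had the lower, and 8 had 0 counts in both. Of the 16 with RNA counts in nrpd1-3, 7 had only 1 to 3 counts there, at or below the floor of 3 counts. These tallies were not made over all loci or over other pseudogenes, so nothing particular to the chosen loci is read from them.

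Summed RNA of the 24 pseudogenes was 321.9 CPM (136 counts) in nrpd1-3, 15.1 CPM (7 counts) in nrpe1-11 and 106.5 CPM (51 counts) in Col-0. The ratio of nrpd1-3 over nrpe1-11 was 21.4 (95% interval 10.1 to 54.1), and 14.8 (6.89 to 37.7) without AT3G44215. The ratio of nrpd1-3 over Col-0 was 3.02 (2.18 to 4.26), and 5.23 (3.77 to 7.37) with libraries scaled by their totals. On the first scale it was 10.9 (6.30 to 20.5) without AT5G41755, which held 37 of the 51 Col-0 counts, and 7.53 (4.27 to 14.3) without both loci. The ratio of nrpe1-11 over Col-0 was 0.142 (0.0542 to 0.313), but 0.516 (0.176 to 1.37) without AT5G41755.

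Protein-coding genes gave a different picture in RNA. Their sum was 132.5 CPM (56 counts) in nrpd1-3, 56.0 CPM (26 counts) in nrpe1-11 and 235.9 CPM (113 counts) in Col-0. The ratio was 2.37 (1.46 to 3.93) for nrpd1-3 over nrpe1-11, 0.562 (0.400 to 0.781) for nrpd1-3 over Col-0, which came to 0.972 with libraries scaled by their totals, and 0.237 (0.149 to 0.366) for nrpe1-11 over Col-0. SUVH4 had 18.9 CPM (8 counts) in nrpd1-3, 0 counts in nrpe1-11 and 14.6 CPM (7 counts) in Col-0. AT1G36675 had 16.6 CPM (7 counts) in nrpd1-3, 0 counts in nrpe1-11 and 0 counts in Col-0, and AT3G60950 had 11.8 CPM (5 counts) in nrpd1-3, 0 counts in nrpe1-11 and 0 counts in Col-0. These last 2 genes had RNA in nrpd1-3 alone, whereas SUVH4 RNA was also present in Col-0. MCM9 had 16.6 CPM (7 counts) in nrpd1-3, 17.2 CPM (8 counts) in nrpe1-11 and 12.5 CPM (6 counts) in Col-0, nearly even across the libraries. AT1G73510, AT3G45660 and AT5G56160 had 0, 0 and 1 counts in nrpd1-3, 1, 0 and 2 in nrpe1-11 and 11, 12 and 13 in Col-0.

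The size rule was also applied to RNA without the minimum of 20 counts, and 54 of the 68 loci had an RNA count in some library. Library sizes were still those taken over the 3297 loci that reached 20 counts, and the shares below depend on that scaling. Of these 54, 10 were called higher in nrpd1-3 than in nrpe1-11, where 1.54% of the 18043 loci with any RNA count were, and 0 were called lower, where 1.76% were. The 10 were the pseudogenes AT3G44215, AT5G27925, AT4G09425, AT2G21460, AT5G19097, AT4G20365 and AT5G28675 and the protein-coding genes SUVH4, AT1G36675 and AT3G60950. All of them but AT4G09425, AT2G21460 and SUVH4 had RNA counts in nrpd1-3 alone. They entered through that library and could not be called lower, so nothing is read from these calls beside the shares over all loci. Against Col-0, 9 of the 54 were called higher, where 3.09% of loci were, and 5 lower, where 3.21% were. The 9 were those 10 without SUVH4, and the 5 were AT5G41755, AT1G73510, AT3G45660, AT5G56160 and LecRK-V.2. Of the 5, AT3G45660 and LecRK-V.2 had RNA counts in Col-0 alone and could not be called higher in a mutant. In nrpe1-11 over Col-0, 0 of the 54 were called higher, where 4.79% were, and 7 lower, where 4.72% were.

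**Figure D5:**
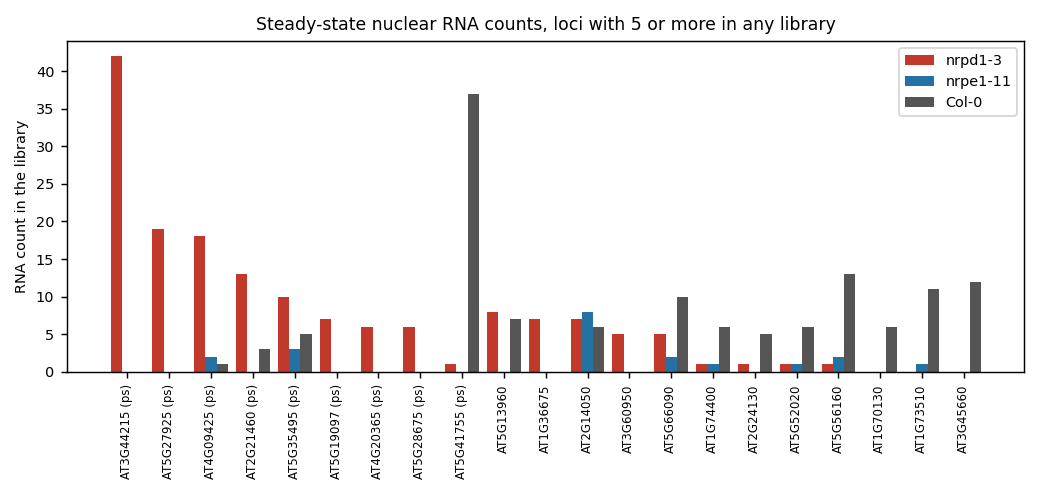
RNA counts (y axis) of the chosen loci with at least 5 counts in any RNA library, in nrpd1-3, nrpe1-11 and Col-0, 1 library each; (ps) marks a pseudogene, AT5G13960 is SUVH4 and AT2G14050 is MCM9. AT3G44215 reaches 42 counts in nrpd1-3 and AT5G41755 reaches 37 counts in Col-0.

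In position the chosen loci were spread over all 5 chromosomes. Chromosomes 1 to 5 held 16, 12, 9, 10 and 21 of them, and chromosome 5 held 10 of the 24 pseudogenes. Only 2 pairs were direct neighbours in the gene order of the annotation, AT2G16676 with AT2G16680 and AT5G35495 with AT5G35510, which had 41 counts in nrpd1-3, 8 counts in nrpe1-11 and 4 counts in Col-0 in NRO. The next locus after the first pair, AT2G16690, had 8 counts in nrpd1-3, 0 counts in nrpe1-11 and 0 counts in Col-0 in NRO, the same order at lower counts. AT1G36675 adjoins the pseudogene AT1G36680, which had 80 counts in nrpd1-3, 21 counts in nrpe1-11 and 0 counts in Col-0 in NRO and 9 counts in nrpd1-3, 0 counts in nrpe1-11 and 0 counts in Col-0 in RNA and lay outside the limit of 25%. DDF2 adjoins NRPD1, whose NRO counts are given above. The chosen pseudogenes lay mostly outside pseudogene-dense stretches, with a median of 1.5 pseudogenes among the 20 nearest loci. That median was 3 for the 107 other pseudogenes with at least 30 counts in nrpd1-3 and 14 for all 3910 pseudogenes.

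Some chosen loci lay beside far more strongly transcribed genes. Of the 67 loci with a place in the gene order, 19 (28.4%) had a direct neighbour with at least 10 times their NRO count in nrpd1-3, against 8.18% of all loci with at least 30 counts. Chosen loci have low counts, and among loci under 100 counts the shares were 26.5% of 49 chosen and 13.1% of 5948 others. AT5G41755 adjoins AT5G41750, which had 29368 counts in nrpd1-3, 23729 counts in nrpe1-11 and 4812 counts in Col-0 in NRO and 510 counts in nrpd1-3, 245 counts in nrpe1-11 and 825 counts in Col-0 in RNA. ESK1 adjoins SZF1 (AT3G55980), which had 67702 counts in nrpd1-3, 61418 counts in nrpe1-11 and 10256 counts in Col-0 in NRO. AT3G45660 adjoins NAXT1 (AT3G45650), which had 2472 counts in nrpd1-3, 733 counts in nrpe1-11 and 566 counts in Col-0 in NRO and whose level, 79.0 CPM in nrpe1-11 beside 281.8 CPM in nrpd1-3 and 282.7 CPM in Col-0, was itself lowest in nrpe1-11. Reads in more than 1 locus had been tallied apart as ambiguous, the strand setting is not given in the sources used here, and the part of such neighbours in the counts was not tested. Over the 72 flanking loci that were measured and not chosen, 7 (9.72%) were called higher in nrpd1-3 than in nrpe1-11 in NRO and 0 lower, where 4.66% and 3.35% of all loci were, and nothing particular to them is read from this. Their median log2 ratio was 0.29, beside -0.004 over all loci.

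The genes of the silencing machinery were counted by the same size rule. Over all loci measured in NRO, 4.66% were called higher and 3.35% lower in nrpd1-3 over nrpe1-11. The shares were 9.31% and 6.99% in nrpd1-3 over Col-0, and 12.1% and 11.1% in nrpe1-11 over Col-0. Of 21 genes that encode polymerase subunits and other factors of RNA-directed DNA methylation, 13 were measured in NRO and none is a chosen locus. In nrpd1-3 over nrpe1-11, NRPD1 was called higher and DRM2, the de novo methyltransferase, lower. In nrpd1-3 over Col-0, NRPD1 and RDR2, the RNA polymerase that makes the small RNA precursors double-stranded, were called higher and IDN2, which binds RNA in the pathway, lower, with a median log2 ratio of 0.10. In nrpe1-11 over Col-0, RDR2 was called higher and IDN2 lower. RDR2 had 27 NRO counts in nrpd1-3, 25 in nrpe1-11 and 0 in Col-0. Of 17 genes that maintain or remove methylation, 13 were measured, and SUVH4 was the only chosen locus among them. In nrpd1-3 over Col-0, MET1, SUVH4 and MORC6 were called higher and the demethylase gene ROS1 lower, and in nrpe1-11 over Col-0 MET1 and MORC6 were called higher and MORC1 and ROS1 lower. ROS1 had 41 NRO counts in nrpd1-3, 72 in nrpe1-11 and 58 in Col-0. Of 5 loci listed beforehand as silenced in wild type, SDC alone was measured in NRO. QQS, another of the 5, had 3 NRO counts and 5 RNA counts in Col-0, so it was not without transcripts there. SDC, a gene known to be silenced by DNA methylation, had 69 counts in nrpd1-3, 78 counts in nrpe1-11 and 0 counts in Col-0 in NRO, so it had transcripts in both mutants and was not a chosen locus. SDC too was measured through the mutants alone and could not be called lower against Col-0.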

How the data were processed

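The deposited files hold whole-number counts of reads per locus, made by the authors. Tools listed per the submitters' processing notes were HTSeq, TopHat2 2.1.0 and Trimmomatic 0.33, and the build was TAIR10. The HTSeq version, annotation release, strand setting and counting mode are not given in the sources used here. The kit was stranded, per the labels' protocols, which repeat the bead capture for the RNA samples. Each deposited table had 5 summary lines, left out of library sizes. Multiply aligned reads had been tallied apart, so counts of repeated loci such as pseudogenes can be too low. Reads in no locus were 18.6%, 18.6% and 25.8% of uniquely aligned NRO reads in nrpd1-3, nrpe1-11 and Col-0. The 279 organelle loci had 0 counts. Annotation classes, names and gene order came from a RefSeq table of TAIR10.1, which matched 67 of the 68 chosen loci, and no coordinates were used.

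The loci, gene lists and tests were chosen with earlier results of these data known. A locus was kept where any library of an assay had at least 20 counts of it. Libraries were put on a common scale with the trimmed mean of M values in edgeR 4.0.16 (R 4.3.3), with a prior count of 2 for log2 ratios. No model was fitted, since each group has 1 library. Intervals are 95% exact (Clopper-Pearson) conditional binomial intervals of a ratio, computed with scipy 1.17.1, and, for sums, exact Poisson intervals of CPM. The pseudogene share has an exact binomial interval over loci. Intervals of ratios and sums, and floors, cover counting error only, since amplified reads with no molecular identifiers can repeat a molecule. Against 0 counts a ratio is given as a bound at 3 counts per library. The size rule was checked on simulated counts. Loci named are those with the 15 highest NRO counts in nrpd1-3, those with at least 5 counts in any RNA library, those among the 12 highest of NRO in Col-0 (5 or more counts), neighbouring chosen loci and those next to the limits. Others were named after their values were seen. Alternatives were other limits of the rule, scaling by library totals or by DESeq2 1.42.0 size factors, other count filters, a 4-fold size rule, and sums without AT3G44215, AT5G41755 or both, the last 3 added after the data were seen. A further 3 samples of precipitated chromatin were not analysed here.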

Additional observations from a re-analysis of the deposited data

How the results depend on the processing

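Other limits of the rule changed the number of chosen loci to 34 with at least 50 counts, 122 with at least 20 counts, 75 with the 25% limit on scaled levels and 26 with a limit of 12.5% of the nrpd1-3 count, beside 68. Pseudogenes made up 76.9% of the 26 (20 loci) and 27.9% to 38.2% under the other limits. RNA counts of calls rose with lower count filters, because more of the 68 loci were then measured, 10 at a minimum of 10 counts and 54 with no filter. In nrpd1-3 over nrpe1-11, 4 and 11 loci were then called higher, of which 4 and 8 were pseudogenes. In nrpd1-3 over Col-0, 4 and 8 were called higher (4 and 7 pseudogenes) and 4 and 5 lower (3 and 4 protein-coding). In nrpe1-11 over Col-0, 5 and 8 were called lower (4 and 7 protein-coding). The unfiltered counts of chosen loci differ by 1 from those in the report where libraries were scaled again over all loci with a count. Calls over all 18043 loci moved more. They came to 351 higher and 269 lower in nrpd1-3 over nrpe1-11, beside 277 and 318. In nrpd1-3 over Col-0 they came to 387 and 707, beside 557 and 579, and in nrpe1-11 over Col-0 to 611 and 1125, beside 865 and 852. A 4-fold size rule left 2 loci lower in NRO of nrpd1-3 over Col-0, 2 of them protein-coding.

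Scaling by library totals moved the median log2 ratio of all loci in NRO to 0.53 in nrpd1-3 and 0.74 in nrpe1-11 over Col-0, beside 0.03 and 0.04, and in RNA to 0.72 and 0.56. The share of calls that were higher then went up to 91.4% in NRO of nrpd1-3 over Col-0, beside 57.1%. Under this scaling the summed NRO ratio of protein-coding genes in nrpd1-3 over Col-0 reversed to 1.26 and the RNA ratio came to 0.972, beside 0.877 and 0.562. The summed RNA ratio of pseudogenes in nrpe1-11 over Col-0 was 0.516 without AT5G41755, with or without AT3G44215. Of 163 alternatives for counts and sums, 137 were classed as the same. For a count this meant an equal or similar number of loci, and for the pseudogene share a value inside its interval. For a sum it meant an interval in the same position relative to 1. A similar number can still differ, as with 43 loci called higher under library totals beside 29 in NRO of nrpd1-3 over Col-0. Among single loci, the log2 ratio over Col-0 in NRO changed sign at 14 under library totals, 9 in nrpd1-3 and 5 in nrpe1-11, at 5 with no filter and at 1 with a minimum of 10 counts. None of these ratios was called in the first place, and no called ratio changed sign. No paired analysis was possible because each group has 1 library. In RNA depth limits what can be seen, since 3 counts equal 6.26 to 7.10 CPM, and 53 to 67 of the 68 loci had 3 counts or fewer in each RNA library.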
